A study of Mus musculus with 4 samples.

Results

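Bhmt encodes betaine-homocysteine methyltransferase, and the genes examined here are Bhmt and the enzymes around it in homocysteine and methionine metabolism. The list has 9 genes: Bhmt, Bhmt2, Mtr, Cbs, Cth, Mat1a, Mat2a, Chdh and Dmgdh. A gene was taken up through every probe set that carries its symbol and no other, and the fit used the probe set of highest mean where a gene had more than 1. By this rule 8 of the 9 genes were measured, on 10 of 28856 probe sets and among 19938 genes in all. Mat2a, the form of S-adenosylmethionine synthetase known outside the liver, was not analysed here. The list was chosen by the measured difference of Bhmt between the genotypes, and the other genes were then taken for their place in the same pathway. The genotype contrast of the members is therefore given as levels, differences and intervals, with no p-value. Where a member is said to be among the genes called, that is a description and no test.

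The samples were total RNA from whole testes of male mice, 2 arrays from mice lacking Lhcgr (Lhcgr KO) and 2 from control WT mice. Lhcgr encodes the receptor for luteinizing hormone. All mice of both groups had received busulfan at 44 mg/kg, an alkylating drug given to eliminate germ cells, and were killed 4 weeks after it. The labels give neither the age of the mice, nor how the allele was made, nor whether each array holds 1 animal, so the spread between arrays may be technical. RNA was read on 1-colour Affymetrix whole-transcript arrays, and levels below are log2 intensity units. With 2 arrays per group, precision is limited by their number.

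Homocysteine arises when S-adenosylmethionine, the methyl donor of most methylation reactions, has given up its methyl group. A cell can methylate it back to methionine or pass it on, through transsulfuration, to cysteine. Methionine synthase (Mtr) takes the methyl group from folate with a cobalamin cofactor. Bhmt takes it from betaine, which choline dehydrogenase (Chdh) helps to make from choline, and Dmgdh breaks down the dimethylglycine that is left. Bhmt2, a paralog, uses S-methylmethionine. Cbs and Cth carry out the steps of transsulfuration, and Mat1a makes S-adenosylmethionine. Bhmt is best known as an enzyme of liver and kidney.

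Markers of somatic testis cells were measured on all arrays. Of 9 measured Sertoli cell genes, 1, Amh, was called higher and 0 lower in the knockout, beside 0.963% and 2.14% of all genes. The median log2 fold change of the 9 was 0.16. For 6 of them both knockout arrays were the higher ones, beside 36.8% of all genes. Lhcgr itself is not analysed here and gave no check of the labels. Wild-type replicate 2 stood apart in genes of the epididymis: 4 of 9 measured, Adam7, Lcn5, Rnase12 and Defb20, were over 1 log2 unit higher there than on any other array. The summed intensity of the 9 epididymal genes was 4734 on that array and between 742.1 and 919.3 on the other 3. The difference of Bhmt is therefore given with and without this array, as is that of Cth.

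The start of Bhmt and that of its neighbour and paralog Bhmt2 are shown because the paralogs differed in their values. Both windows are from RefSeq on GRCm38.p6 and run from 250 bases before to 50 after the gene's start. Bhmt lies at chr13:93637709-93638008 and Bhmt2 at chr13:93674253-93674552, both on the minus strand. Capitals mark AGGTCA, the core motif of many nuclear receptors, searched on both strands.
Bhmt: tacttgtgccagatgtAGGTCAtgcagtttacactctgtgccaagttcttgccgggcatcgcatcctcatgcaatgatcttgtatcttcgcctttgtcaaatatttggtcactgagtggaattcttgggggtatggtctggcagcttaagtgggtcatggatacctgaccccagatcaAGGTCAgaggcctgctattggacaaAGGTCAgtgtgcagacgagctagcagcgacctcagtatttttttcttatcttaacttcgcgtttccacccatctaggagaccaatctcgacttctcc
Bhmt2: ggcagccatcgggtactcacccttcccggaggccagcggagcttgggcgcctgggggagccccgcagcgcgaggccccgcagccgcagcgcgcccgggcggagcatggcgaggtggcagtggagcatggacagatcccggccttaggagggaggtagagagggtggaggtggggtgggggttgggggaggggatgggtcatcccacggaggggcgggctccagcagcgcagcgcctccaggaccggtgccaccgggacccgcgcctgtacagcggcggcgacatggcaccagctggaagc

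The Bhmt window held AGGTCA 3 times, beginning 234, 72 and 47 bases before the start. Of 32817 windows of this length, 16.3% held the motif at least once and 60, or 0.183%, held it 3 or more times. The middle match is part of TCAAGGTCA, the longer form bound by steroidogenic factor 1 (Nr5a1), which begins 75 bases before the start and occurs in 0.424% of all windows. These letters were searched after the Bhmt window had been read, and a match is a description of the sequence only. Among the 9 windows of 7 members in the table, Bhmt had the only match to either motif. TGACGTCA, the cyclic AMP response element, was in none of the 9 windows and in 1.79% of all. The windows also differed in base composition: 48.0% G and C with 8 CpG in Bhmt, against 73.7% and 26 in Bhmt2. The windows of Bhmt2 and Dmgdh, which are read in opposite directions from neighbouring starts, share 233 bases. Of the 8 genes described below as closest to Bhmt in pattern, 6 have a window; AGGTCA was in that of 1 of them, Cd36, and TCAAGGTCA in none. Of the 10 measured adult Leydig cell markers described below, 6 have a window; AGGTCA was in those of 2, Cyp11a1 and Sult1e1, and TCAAGGTCA in none.

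Bhmt was high in wild-type testes and low in the knockout. On probe set 10457114, its intensity was 1871 and 1029 on wild-type replicates 1 and 2, and 83.8 and 101.6 on knockout replicates 1 and 2. In log2 units these are 10.87, 10.01, 6.39 and 6.67. Both knockout arrays lay far below both wild-type arrays, and the wild-type arrays differed by 0.86 log2 units between themselves. The knockout mean was 6.53 ± 0.20 (SD, n = 2) and the wild-type mean 10.44 ± 0.61. The difference was -3.91 ± 0.27 log2 units (SE), or 15.0-fold lower in the knockout with a 95% interval of 9.59 to 23.5. Among 19938 genes it was the 8th largest fall. Bhmt was chosen by this difference, so its rank and interval are a description and no test. Since the tissue is bulk, fewer cells of a type and less RNA per cell cannot be told apart. Without wild-type replicate 2, the array with epididymal genes, the difference was -4.34, and without wild-type replicate 1 it was -3.48.

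The other probe sets of Bhmt gave like values. On probe set 10411142 the wild-type arrays read 9.43 and 8.78 and the knockout arrays 5.22 and 4.95, a difference of -4.02 ± 0.22. On probe set 10511886 they read 10.55 and 9.67 against 5.90 and 6.32, a difference of -4.00 ± 0.29. All 3 probe sets separated the groups completely, and on all 3 wild-type replicate 1 was the highest array, by 0.65 to 0.88 log2 units. The fold was 16.2 (95% interval 11.2 to 23.4) for the former and 16.0 (9.91 to 25.8) for the latter. The knockout intensities of probe set 10411142, 37.3 and 31.0, are close to the lowest value in the table, 16, so its fold may understate the change.

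The 3 probe sets do not stand at the same place in the order of probe set numbers. That order follows the genome in large part, with 94.3% of successive named probe sets on the same chromosome. Probe set 10411142 stands between Jmy and Bhmt2, the neighbours of the Bhmt gene. Probe set 10511886 stands between Manea and Bach2os, on the chromosome that carries the pseudogene Bhmt-ps1, and 10457114 between Cbln2 and Rttn, on another. The annotation pairs all 3 with the Bhmt transcript, and signal of the gene and of near-identical copies could not be told apart on the latter 2.

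**Figure D1:**
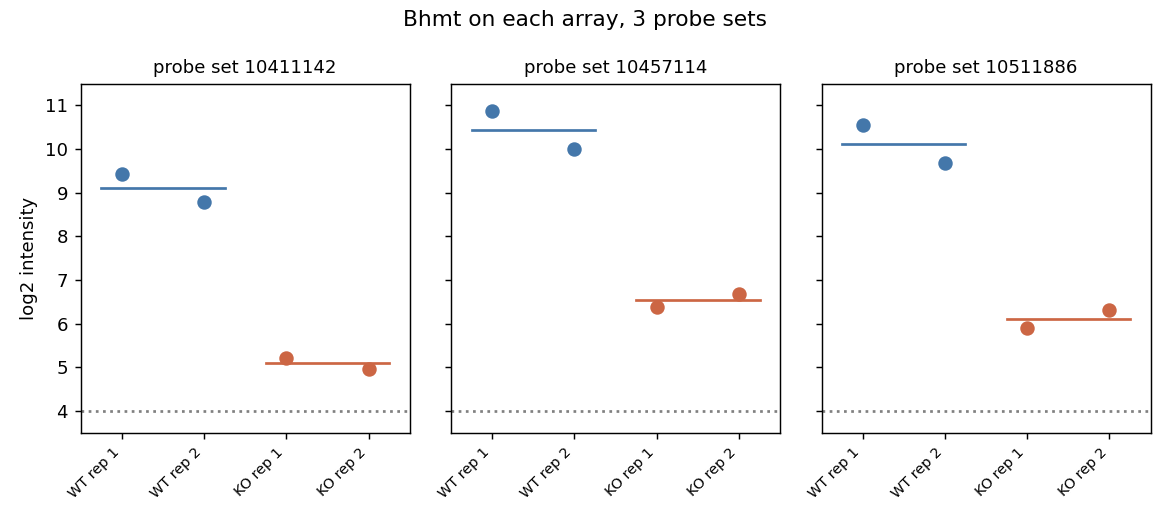
Log2 intensity of Bhmt on each of the 4 arrays for its 3 probe sets; points are arrays, bars are group means of 2 arrays, and the dotted line is the log2 of the lowest intensity in the table, 16. On each probe set both knockout (KO) arrays lie below both wild-type (WT) arrays, by -3.91 to -4.02 log2 units between the means.

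The other enzymes that return homocysteine to methionine showed no such difference. Bhmt2 (probe set 10411147) read 7.07 and 6.75 on wild-type replicates 1 and 2, and 6.99 and 7.34 on the knockout arrays. The groups overlapped, and the difference was 0.25 ± 0.17 (95% interval -0.15 to 0.65). Its intensity, 108.0 to 161.5, lay below the lowest array median, 198.3, where a fall may not show. Mtr (probe set 10407709), the cobalamin-dependent methionine synthase, read 9.87 and 9.95 in wild type and 9.83 and 10.01 in the knockout. Its groups overlapped too. The difference was 0.01 ± 0.12, with a 95% interval of -0.28 to 0.30.

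The enzymes before and after Bhmt on the betaine route differed little. Chdh (probe set 10413517), the mitochondrial enzyme that oxidises choline, read 9.14 and 8.84 in wild type and 9.38 and 9.28 in the knockout. Both knockout arrays were the higher ones, with a difference of 0.34 ± 0.14 (95% interval 0.00 to 0.67). Dmgdh (probe set 10406646), the next gene to Bhmt2 on the chromosome, read 6.65 and 6.60 against 6.69 and 6.62. These groups overlapped, and the difference was 0.04 ± 0.11 (-0.23 to 0.30). Dmgdh read 96.7 to 103.5 in intensity, also below the lowest array median of 198.3, so a fall may not show.

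Mat1a, Cbs and Cth complete the measured members. Mat1a (probe set 10414192), the S-adenosylmethionine synthetase of liver, read 6.74 and 6.91 in wild type and 7.02 and 7.47 in the knockout. Both knockout arrays were higher, and the difference was 0.42 ± 0.17 (95% interval 0.02 to 0.83). The intensity of Mat1a, 106.5 to 177.3, was likewise below the lowest array median of 198.3. Cbs (probe set 10449712), which joins homocysteine to serine, read 7.86 and 7.69 against 7.46 and 7.64. Both knockout arrays were lower, by the narrow margin that separates 7.69 from 7.64, and the difference was -0.22 ± 0.13 (-0.53 to 0.08). Cth (probe set 10503023), which cleaves cystathionine to cysteine, read 7.86 and 8.66 against 8.17 and 8.26. Its wild-type arrays lay on either side of the knockout ones, and the difference was -0.05 ± 0.25 (-0.64 to 0.54). Cth was highest on wild-type replicate 2, and its difference was 0.35 without that array and -0.45 without wild-type replicate 1.

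Counted together, 1 of the 8 measured members, Bhmt, was among the genes called (limma, Benjamini-Hochberg adjusted p under 0.05 over all genes), and 0 of the other 7 were. Of all genes, 3.10% were called, 2.14% lower and 0.963% higher. As the contrast had brought Bhmt into view, nothing is read from this count. Without knockout replicate 1 or without knockout replicate 2, Bhmt was not among the genes called. The arrays of the groups did not overlap for 2 members that were lower in the knockout, Bhmt and Cbs, and 2 that were higher, Chdh and Mat1a. Over all genes this held for 22.4% lower and 36.8% higher, 59.2% in either direction. The median log2 fold change of the 7 members without Bhmt was 0.04, beside 0.07 over all genes. Of the 8, Bhmt alone differed by more than 1 log2 unit, and the differences of the other 7 ran from -0.22 to 0.42.

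**Figure D2:**
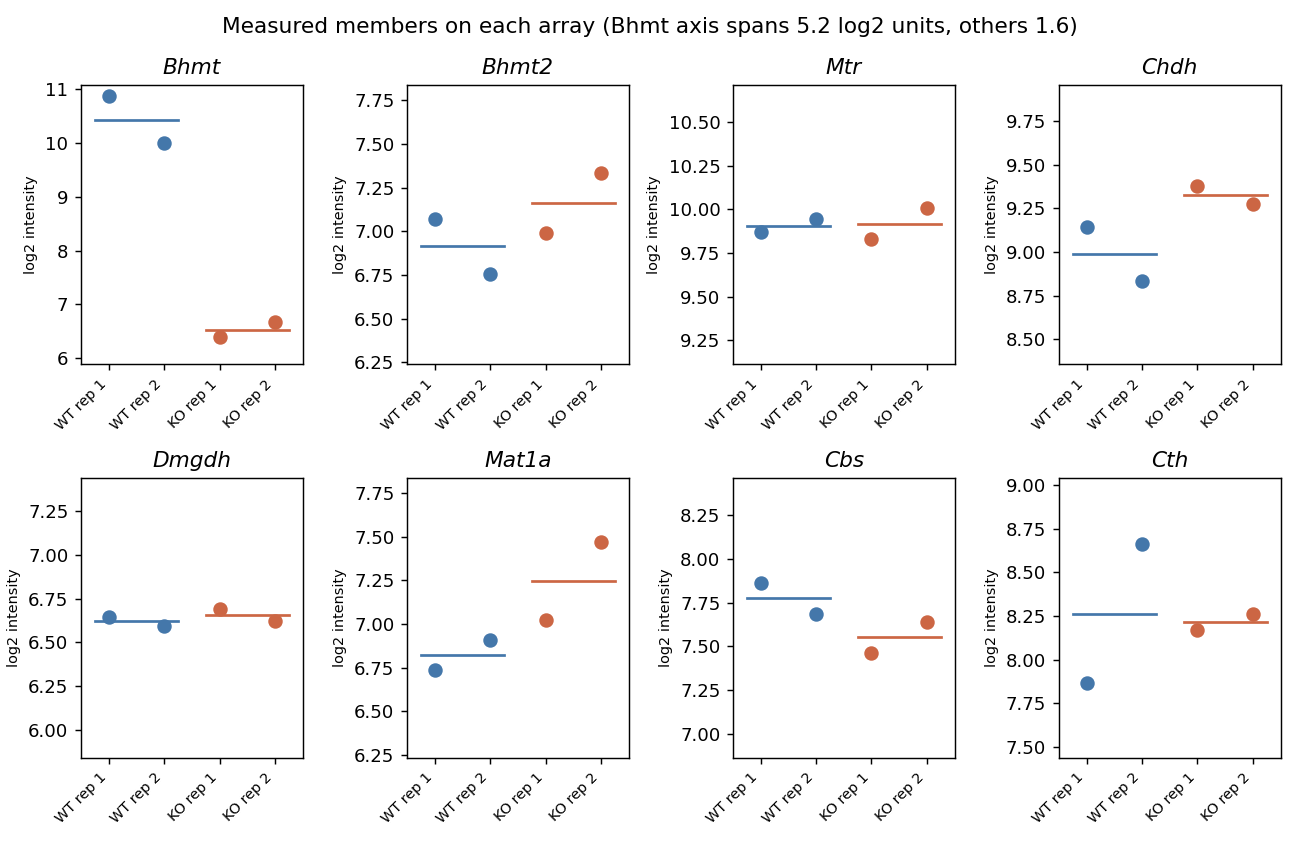
Log2 intensity of the 8 measured members on each array, with points for arrays and bars for group means of 2 arrays; the Bhmt panel has a wider axis than the others. The groups of Bhmt differ by -3.91 log2 units, while Bhmt2, Mtr, Dmgdh and Cth overlap between the groups.

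Other genes of the pathway, which are no members, were taken from a list of 77 genes in 6 groups, of which 68 were measured. None was called in either direction, though at least 1 was under 9 of the 13 alternatives that kept all 4 arrays. An unadjusted limma p under 0.05 was found for 16, 23.5% of them beside 22.7% of all genes. The median log2 fold change of the 68 was -0.00072, with a range from -1.23 for Aldh1l1 to 0.56 for As3mt. No measured gene on this list came near the difference in Bhmt.

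Among methyl transfer genes, 0 of 10 were called. As3mt, which methylates arsenite, read 8.40 and 8.41 in wild type and 8.89 and 9.03 in the knockout, a difference of 0.56 ± 0.11 (limma adjusted p = 0.0595). Inmt, an amine methyltransferase, had a difference of -0.51 ± 0.16 (adjusted p = 0.144). As3mt was higher on both knockout arrays without passing the threshold. It was called higher with the lowest 25% or 50% of genes left out, with 32 intensity units added, and with a trended or a robust prior, and its adjusted p ran from 0.0384 to 0.285 over all alternatives.

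Among betaine, choline and sarcosine genes, 0 of 9 were called. Aldh7a1, which oxidises betaine aldehyde to betaine, had a difference of -0.54 ± 0.19 (limma adjusted p = 0.170). Pipox, which oxidises sarcosine, had one of 0.53 ± 0.12 (adjusted p = 0.0818). Aldh7a1 acts before the reaction of Bhmt and Pipox after it. Neither was called, so nothing is read from the opposite signs. Among the 13 genes of cobalamin and folate supply to methionine synthase, 0 were called. Mtrr, which restores the active form of Mtr, had a difference of -0.38 ± 0.13 (adjusted p = 0.158), and the cobalamin carrier Tcn2 had one of -0.39 ± 0.14 (adjusted p = 0.182).

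The folate cycle had the lowest median of the 6 groups, -0.24 over 16 genes, and 0 were called. Mthfd1l, which releases formate in mitochondria, read 8.42 and 8.63 in wild type and 7.94 and 7.68 in the knockout, a difference of -0.71 ± 0.14 (limma adjusted p = 0.0549). Aldh1l1, which oxidises formyl-tetrahydrofolate in the cytosol, read 9.84 and 8.96 against 8.17 and 8.16, a difference of -1.23 ± 0.26 (adjusted p = 0.0668). Both were lower on both knockout arrays, and both lie close to the threshold. Mthfd1l passed after quantile normalization (adjusted p = 0.0433) and with every array centred on its own median (0.0368). It also passed with the lowest 25% or 50% of genes left out, with 32 intensity units added, with a trended or a robust prior, and at a threshold of 0.1. Over all 17 alternatives its adjusted p ran from 0.0306 to 0.291 and that of Aldh1l1 from 0.000644 to 0.336. Shmt2, the mitochondrial serine hydroxymethyltransferase, named after its values were seen, had a difference of -0.53 ± 0.12 (adjusted p = 0.069). It was called lower with the lowest 50% of genes left out (0.044) and with 32 intensity units added (0.0496), within a range of 0.044 to 0.289. Leaving out wild-type replicate 1 keeps only the wild-type array with epididymal genes. The differences of Mthfd1l and Aldh1l1 were then -0.82 and -0.79, and those of Suox and Sat1 -1.31 and -1.48. Without wild-type replicate 2, Mthfd1l and Aldh1l1 differed by -0.60 and -1.68, and Suox and Sat1 by -0.54 and -0.48.

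Among 12 genes of cysteine, taurine and sulfide metabolism, 0 were called. Suox, sulfite oxidase, had a difference of -0.93 ± 0.26 (limma adjusted p = 0.120), and Gclc, the catalytic subunit of the first enzyme of glutathione synthesis, had one of -0.25 ± 0.12 (adjusted p = 0.254). Of the 8 genes of polyamines and methionine salvage, 0 were called. Sat1, a polyamine acetyltransferase, had a difference of -0.98 ± 0.29 (adjusted p = 0.136) and Apip, a dehydratase of methionine salvage, one of -0.32 ± 0.12 (adjusted p = 0.188). Suox read 8.73 on wild-type replicate 2, 0.78 log2 units above the next array, and Sat1 read 10.51 there against 9.51 on the next. Gldc and Cdo1 were also over 0.5 log2 units higher on that array, which is the one with epididymal genes, and the part of that in these values was not tested.

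**Figure D3:**
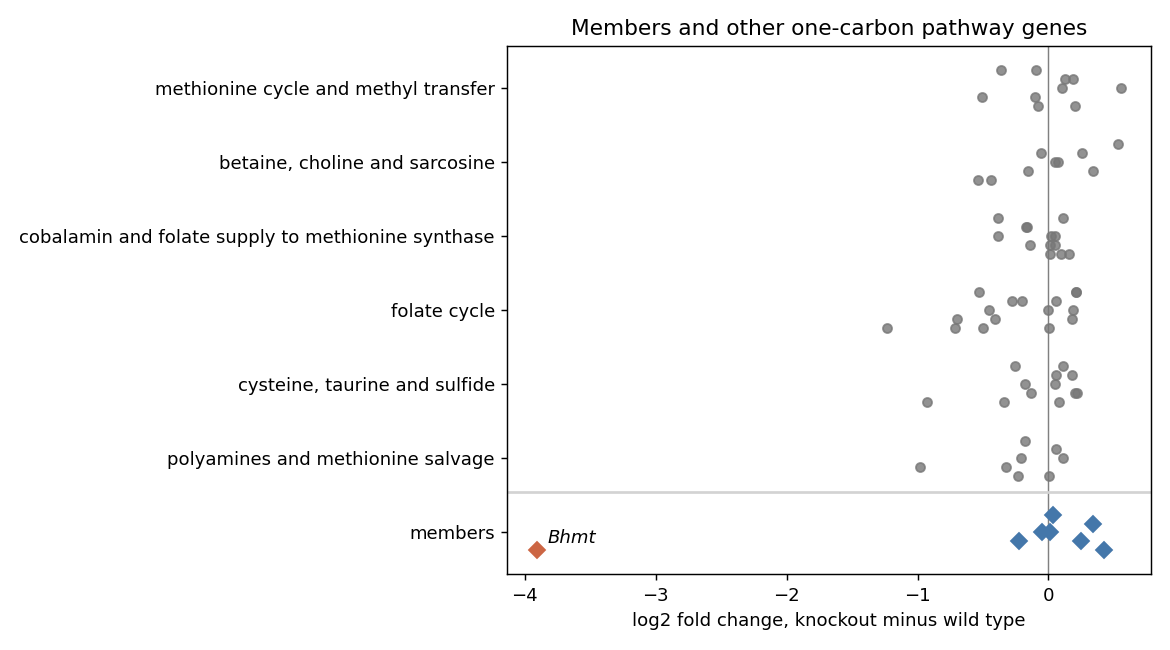
Log2 fold change, knockout minus wild type, of 68 other pathway genes in 6 groups (grey circles, spread vertically for legibility) and of the 8 measured members (diamonds, the called gene in orange). The grey circles lie between -1.23 and 0.56, and Bhmt lies at -3.91.

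The genes beside Bhmt on its chromosome were compared because Bhmt, Bhmt2 and Dmgdh lie next to each other. Of the 5 measured genes on either side, 0 of 10 were called in either direction by limma, beside 3.10% of all genes. With so few genes, nothing is read from this count. An unadjusted limma p under 0.05 was found for 1 of the 10, beside 22.7% of all genes. That gene was Homer1, a scaffold protein of synapses, which read 9.15 and 9.07 in wild type and 8.61 and 8.78 in the knockout, a difference of -0.41 ± 0.12 (limma adjusted p = 0.127). Jmy, the nearest measured gene on the side away from Bhmt2, had a difference of 0.15 ± 0.12 (adjusted p = 0.451), and the lysosomal sulfatase Arsb, beyond Dmgdh, had one of -0.21 ± 0.12 (adjusted p = 0.332). Among the remaining neighbours, Cmya5, Gm4814, Tent2, Lhfpl2 and Scamp1, differences ran from -0.11 to 0.26. Across this stretch, no measured neighbour differed by more than 0.41 log2 units.

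**Figure D4:**
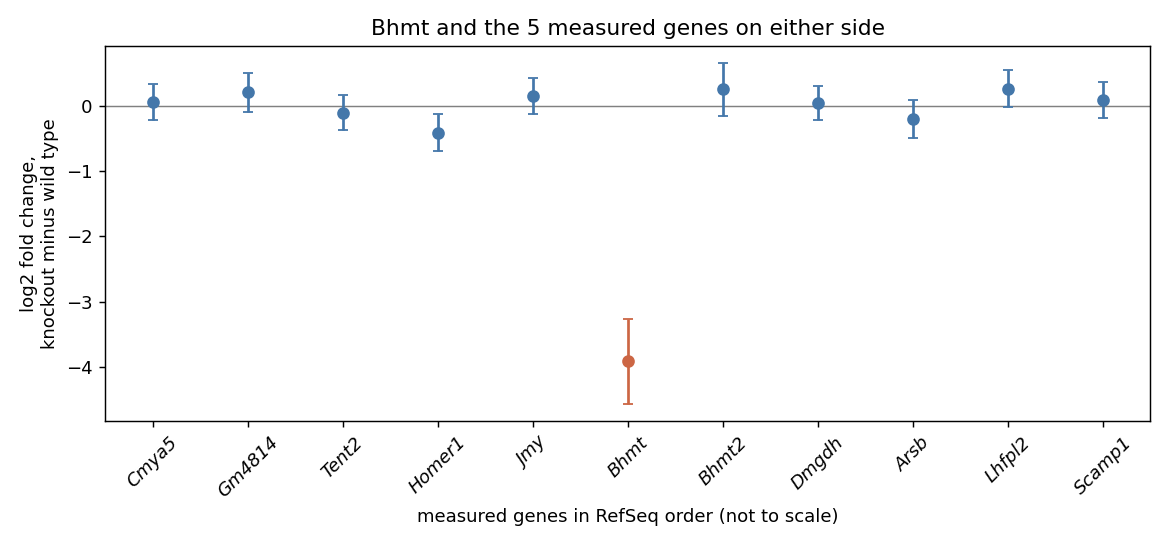
Log2 fold change, knockout minus wild type, with 95% intervals from the fit, for Bhmt (orange) and the 5 measured genes on either side of it in RefSeq order; spacing is not to scale. Bhmt lies at -3.91 and the 10 neighbours between -0.41 and 0.26.

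Genes with the pattern most like Bhmt were found by the Euclidean distance between log2 profiles over the 4 arrays, each centred on its own mean. The closest was Ces1d, a carboxylesterase of Leydig cells, at a distance of 0.51 log2 units, with a difference of -4.01 ± 0.23. Next came the water channel Aqp8 at 0.77, Trpc5os at 0.79, the muscle actinin Actn3 at 0.79 and the fatty acid receptor Cd36 at 0.79. Hsd3b3, a steroid dehydrogenase, stood at 0.93, the siderophore carrier Lcn2 at 1.003 and Lrg1 at 1.02. Ces1d is the only one of the 8 on the list of adult Leydig cell markers. The order rests on 4 arrays and describes likeness only. Bhmt and Cd36 were both lower on wild-type replicate 2 than on replicate 1, by 0.86 and 0.88 log2 units, whereas Aqp8 read 10.73 on both.

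Markers of adult Leydig cells, the cells that carry the luteinizing hormone receptor in the testis, moved with Bhmt. Of 10 measured, 6 were called lower and 0 higher, beside 2.14% and 0.963% of all genes. The list was drawn up with earlier results of these data known, so this count is a description and no test. The median log2 fold change was -1.87. The summed intensity was 4053 and 5272 on the knockout arrays against 15284 and 27165 on the wild-type arrays. Within the wild-type pair, the median marker was lower on replicate 2 by 0.57 log2 units, and Bhmt by 0.86. Replicate 2 minus replicate 1 ran from 0.11 for Hsd3b6 to -2.81 for Sult1e1 among these markers. The differences ran from -6.81 for the steroid dehydrogenase Hsd3b6, the largest fall of all genes, to 0.06 for Hsd11b1. Cyp11a1 had one of -1.79 and Cyp17a1 one of -1.43. No marker is at 0, since the table has a floor, and Hsd3b6 read 5.75 and 5.17 in the knockout. The part of Leydig cell content in the difference of Bhmt was not tested.

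**Figure D5:**
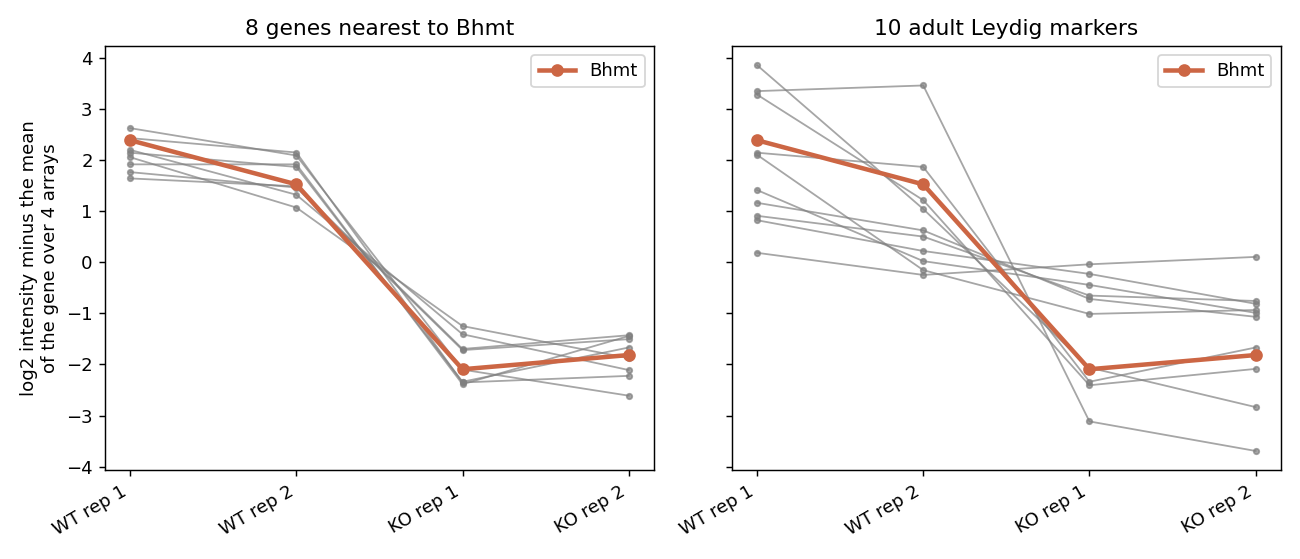
Log2 intensity minus the mean of each gene over the 4 arrays, for Bhmt (orange) with the 8 genes nearest to it (left) and with 10 adult Leydig cell markers (right); lines join the arrays of 1 gene and imply no order. Both sets are high on the wild-type (WT) and low on the knockout (KO) arrays, except Hsd11b1 among the markers, with a difference of 0.06.

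Macrophage markers also moved with Bhmt between the groups: 4 of 11 were called lower and 0 higher, beside 2.14% and 0.963% of all genes. These markers were likewise chosen with earlier results of these data known, so the count is a description. Their summed intensities were 4886 and 5127 in the knockout against 8373 and 10523 in wild type. Within the wild-type pair, the median macrophage marker was 0.28 log2 units higher on replicate 2, the array with epididymal genes. Nothing is read from this single pair of arrays, and the part of macrophages was not tested. Markers of the organs best known for Bhmt were not called lower with it. Apart from Ahsg and Apoa1, all hepatocyte and kidney genes read below the lowest array median of 198.3 on every array. A fall in them may not show. Of 10 hepatocyte genes 0 were called lower and 1 higher, Ahsg, with a difference of 2.05 (limma adjusted p = 0.00405), and their summed intensity was higher in the knockout, 2213 and 2255 against 1351 and 1267. Most of that gap was Ahsg: without it the sums were 1166 and 1272 against 1141 and 982.1. Of 6 genes of the kidney proximal tubule 0 were called in either direction and 1 had an unadjusted p under 0.05, with sums of 570.4 and 645.9 against 537.4 and 557.7. Of 9 germ cell markers 0 were called and 2 had an unadjusted p under 0.05, with a median log2 fold change of 0.12. The unadjusted p counts are 16.7% of the kidney and 22.2% of the germ cell genes, beside 22.7% of all genes.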

How the data were processed

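The authors deposited 1 table of linear intensity values for probe sets on 4 arrays, from 16 to 18389, with array medians from 198.3 to 215.1. Per the labels' protocols, RNA was converted to sense-strand cDNA and labelled with biotin. The submitters' processing notes name mm9; how probes were summarized, background-corrected and normalized is not given in the sources used here, and no detection calls were used. Of 28856 probe sets, 21789 have 1 gene symbol, 1621 several and 5446 none listed. Symbols were checked against RefSeq on GRCm38.p6 through the Entrez number, which matched for 21698. That build differs from mm9 and served for names, gene order and promoter sequence.

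Values were taken to log2 with nothing added and fitted with limma 3.58.1 in R 4.3.3 (lmFit, eBayes, no covariate) over 19938 genes, knockout against wild type. Two-sided p-values were Benjamini-Hochberg adjusted over all of them and called under 0.05. Errors after a difference are SE after eBayes, with 4.65 prior and 2 residual degrees of freedom. Members, gene lists and markers were chosen with earlier results of these data known. Named genes are all members, the 2 lowest p in each pathway group, the neighbours of Bhmt, its 8 nearest genes and the first genes of each marker list; others were named after their values were seen. Alternatives covered scaling, low-value filters, added or subtracted intensity, probe set choice, the prior, each array left out, the replicate block and a threshold of 0.1.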

Additional observations from a re-analysis of the deposited data

How the results depend on the processing

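The difference of Bhmt ran from -4.34 to -3.48 log2 units with an array left out and from -4.15 to -3.51 under the other alternatives. Without knockout replicate 1 (-3.77) and without knockout replicate 2 (-4.05) it was not among the genes called, so the number of members called was 0 to 1 with an array left out. In these fits the lone array of a group is assumed to vary like the other group. Without knockout replicate 1, 16 genes were called lower and 2 higher, and without knockout replicate 2, 21 and 2, against 426 and 192 with all arrays and up to 726 and 313 without wild-type replicate 1. After subtracting the lowest value of each array less 1, 280 were lower and 109 higher, and at a threshold of 0.1, 762 and 482. The 7 other members and the 10 neighbours were called under no alternative that tested them. Filters on low values left out Dmgdh at 25%, Dmgdh, Bhmt2, Mat1a and Cbs at 50%, and weak neighbours at both. Mtr, Dmgdh and Cth, all near 0, changed sign under some. Of the pathway genes, none called with all arrays, the number lower was 0 to 8 with an array left out. It was 1 after quantile normalization, 2 after centring on the median, 1 and 2 with the lowest 25% and 50% of genes left out, 2 with 32 intensity units added, 1 with a trended and 1 with a robust prior, and 4 at a threshold of 0.1. The number higher was 1 with either filter, the 32 units or either prior, and 2 at a threshold of 0.1. With the replicate block, 1 pathway gene, Aldh1l1, was called lower, and Bhmt kept its difference of -3.91. The replicate numbers do not pair the samples by the labels, and the differences between replicates of the groups correlated at 0.021 over genes. Over all genes tested, the median difference was -0.04 to 0.09 across settings. Low intensity limits what the knockout level of Bhmt can show. That level was 83.8 and 101.6 on probe set 10457114, below the lowest array median of 198.3. On probe set 10411142 it was 37.3 and 31.0, close to the lowest value, 16.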
